A study of Mus musculus with 6 samples.

Results

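Metallothioneins are small, cysteine-rich proteins that bind zinc and copper in the cytosol, and zinc transporters move zinc into or out of it. The family described here comprised 30 of the 35976 genes listed in the count tables: the metallothioneins Mt1 to Mt4, the 10 Slc30a genes, the 14 Slc39a genes, the regulator Mtf1 and the zinc efflux protein gene Tmem163. The members were chosen by gene symbol, and the family was taken up because strong falls of Mt1 and Mt2 in this same comparison were already known, so the changes below are given as a description. All 30 symbols were found in the tables, and 24 of them passed the low-count filter.

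Total RNA depleted of ribosomal RNA was sequenced from 6 cultures of neurons of the dorsal root ganglia (DRG), which relay touch, heat and pain to the spinal cord. The cells came from lumbar ganglia of adult wild-type C57BL/6 mice aged 2 to 3 months and of either sex, and grew in serum-containing medium with added growth factors. HC-HA/PTX3 is a matrix complex of heavy chain, hyaluronan and pentraxin purified from human amniotic membrane. It was given at 15 µg/mL to 3 cultures, and 3 others had vehicle. Exposure began 24 h after plating and lasted 24 h. Whether the cultures came from separate animals is not given in the sources used here, so the p-values below cover these cultures only. In the fit reported, they measure how far the differences within same-numbered pairs vary, not the spread between cultures of a group. The libraries held 42516054, 42617496 and 54117547 counts in vehicle replicates 1, 2 and 3, and 37998071, 37434266 and 38420247 in HC-HA/PTX3 replicates 1, 2 and 3. Levels are given in CPM, the count unit corrected for library size, after scaling with the trimmed mean of M-values (TMM), and 1 CPM stood for 37.1 to 56.0 counts.

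As background, the SLC30 (ZnT) proteins carry zinc out of the cytosol, across the plasma membrane or into organelles, and the SLC39 (ZIP) proteins carry it in. When zinc rises in the cytosol, the zinc-finger factor MTF1 binds metal response elements and activates Mt1, Mt2 and Slc30a1, and it is also known to hold down Slc39a10. Mt1 and Mt2 additionally respond to glucocorticoids and oxidative stress, whereas Mt3 is the form typical of neurons. In sensory neurons and spinal cord, zinc is released at synapses and modulates ion channels and receptors. Zinc itself was not analysed here.

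Promoters are shown for Mt1, Mt2 and Slc30a1, which fell, and for Mt3, which did not, because the element that MTF1 recognises is defined by sequence. The core of the metal response element was searched as TGCACNC and TGCGCNC on both strands, with overlapping matches merged into 1 place, in the RefSeq windows of GRCm38.p6 that run from 250 bases before to 50 bases after each start site. The sequences below run 5′ to 3′ on the plus strand, stop before the first annotated base of the gene, and show each core in capitals.
Mt1, chr8:94178839-94179081: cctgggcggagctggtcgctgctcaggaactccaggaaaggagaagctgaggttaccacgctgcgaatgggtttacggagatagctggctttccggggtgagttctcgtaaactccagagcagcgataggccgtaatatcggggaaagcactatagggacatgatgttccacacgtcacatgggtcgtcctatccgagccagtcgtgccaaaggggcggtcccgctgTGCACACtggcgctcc
Mt2, chr8:94172368-94172617: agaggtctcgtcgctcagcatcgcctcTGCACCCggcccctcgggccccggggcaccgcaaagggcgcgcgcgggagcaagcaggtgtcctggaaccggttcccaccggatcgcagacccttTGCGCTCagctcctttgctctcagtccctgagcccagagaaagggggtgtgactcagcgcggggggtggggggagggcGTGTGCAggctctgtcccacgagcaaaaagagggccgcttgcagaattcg
Mt3, chr8:94152357-94152606: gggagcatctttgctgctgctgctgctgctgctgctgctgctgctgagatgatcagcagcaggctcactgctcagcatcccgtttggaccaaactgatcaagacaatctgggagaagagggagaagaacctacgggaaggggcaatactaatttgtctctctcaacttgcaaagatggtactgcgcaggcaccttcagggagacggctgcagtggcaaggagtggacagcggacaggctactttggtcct
Slc30a1, chr1:191906531-191906766: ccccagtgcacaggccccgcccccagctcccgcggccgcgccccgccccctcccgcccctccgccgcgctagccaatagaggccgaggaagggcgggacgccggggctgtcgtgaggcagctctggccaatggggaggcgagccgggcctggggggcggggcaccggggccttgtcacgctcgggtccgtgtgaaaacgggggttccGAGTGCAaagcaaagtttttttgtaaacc
Further cores followed within the first 30 bases after the RefSeq start sites of Mt1 and Mt2. For Mt2 this stretch still lies before the start of the gene in GENCODE M21, at 94172664. No window was placed on any start outside RefSeq.
Mt1, chr8:94179089-94179118: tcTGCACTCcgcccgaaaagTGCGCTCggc
Mt2, chr8:94172618-94172647: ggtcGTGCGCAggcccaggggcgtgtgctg

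Mt3 and Slc30a1 each had 1 further place after the start site, which is not shown. The stretch printed for Mt2 also lies in an exon of the antisense gene Gm45774, and that for Slc30a1 within the antisense gene 1700034H15Rik. The whole window held 3 places with a core in Mt1, 4 in Mt2, 2 in Slc30a1 and 1 each in Mt3 and Mt4. At least 3 places were found in 1.31% of all 32851 promoter windows, and at least 4 in 0.295%. The 2 windows of Slc39a10 held 0 places, and each of the 2 windows of Slc39a11 held 1. Neither window of Slc39a10 covers the start of the gene in GENCODE M21, at 46892852, so that start was not searched. Slc30a4, with 3 places, had as many as Mt1. The table had 31 windows for 26 members, and 16 of these windows (51.6%) held at least 1 place, against 25.7% of all windows. These matches describe letters in a window and say nothing of binding, and Slc30a8, Slc39a4, Slc39a6 and Slc39a14 had no entry.

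In the cultures treated with HC-HA/PTX3, Mt1, Mt2 and the zinc exporter gene Slc30a1 were at 0.266, 0.125 and 0.323 times their vehicle levels in the fit, and the importer gene Slc39a10 was at 2.62 times its vehicle level. Slc39a11 was the only other member called, at 0.699 times its vehicle level. Mt3, the remaining 5 tested exporters, the remaining 11 tested importers, Mtf1 and Tmem163 did not pass the thresholds, which required an absolute log2 fold change over 0.5 together with an adjusted p (Benjamini-Hochberg) below 0.05. Of the 24 tested members, 4 were called lower and 1 higher, where 5.38% and 3.32% of the 18277 tested genes were called in these directions and 8.70% in either. The test was the quasi-likelihood F-test of edgeR, blocked by replicate number, which compares cultures of the same number and stands in for the batch term of the study's methods. Without the block, edgeR called 0 of the 18277 genes and 0 of the members, with 2089 genes and 6 members at an unadjusted p-value under 0.05. With the block, 6068 of the 18277 genes and 11 members were at an unadjusted p-value under 0.05 in edgeR, the share to hold beside the counts of this kind given for the lists below. DESeq2 and limma-voom with the block each called 5 members, of 1211 and 1569 genes called in all, and ComBat-seq followed by limma called 7 members, of 2127 genes. Since the family was taken up for its behaviour in this comparison, these counts support nothing beyond the description.

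Mt1 lies on chromosome 8 from 94179082 to 94180327 (mm10, GENCODE M21). It was at 55.1, 67.7 and 72.2 CPM in vehicle replicates 1, 2 and 3 and at 11.4, 22.8 and 19.0 CPM in HC-HA/PTX3 replicates 1, 2 and 3, from 2206, 2907 and 4043 counts against 423, 866 and 748. Every treated culture was below every vehicle culture, and replicate 1 was the lowest of its group on both sides. The group means were 65.0 ± 8.87 and 17.7 ± 5.83 CPM (n = 3 cultures a group, ± SD), and the log2 fold change was -1.91 (SE 0.12). In bulk RNA, fewer cells of a type that expresses the gene and less of its RNA per cell cannot be told apart, here or for the other members.

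Mt2, on chromosome 8 from 94172664 to 94173568, had the larger fall. Its levels were 16.9, 32.8 and 32.2 CPM in vehicle replicates 1, 2 and 3 and 2.37, 4.06 and 3.71 CPM in their HC-HA/PTX3 partners. The groups did not overlap, and vehicle replicate 1, although lower than the other vehicle cultures, was still above all treated cultures. The means were 27.3 ± 9.05 and 3.38 ± 0.892 CPM (n = 3 cultures a group, ± SD), with a log2 fold change of -3.00 (SE 0.11). Within the same-numbered pairs the log2 ratios were -2.83, -3.02 and -3.12 for Mt2 and -2.27, -1.57 and -1.93 for Mt1. Mt2 thus fell further than Mt1 in each pair, and the ratio of Mt1 counts to Mt2 counts went from 3.27, 2.06 and 2.24 in the vehicle cultures to 4.81, 5.62 and 5.12 in the treated cultures.

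Mt3, the neuronal form, lies upstream of Mt1 on the same strand, with its start at -26.5 kb, on chromosome 8 from 94152607 to 94154146. Its levels were 54.2, 36.7 and 44.4 CPM in the vehicle cultures and 63.2, 43.8 and 54.6 CPM in the treated cultures. The groups overlapped, while each treated culture was above its own partner, by 0.22, 0.25 and 0.30 on the log2 scale. The fitted log2 fold change was 0.26 (adjusted p = 0.0265, SE 0.07, edgeR), which passed the adjusted p-value but not the size threshold of 0.5. With the cultures of a replicate number left out, edgeR with the block gave Mt3 adjusted p-values of 0.0816 to 0.107. Mt4, a form typical of squamous epithelium, had 0, 0 and 2 counts with vehicle and 0, 2 and 0 counts with HC-HA/PTX3, at or under the 3 counts taken as the limit of detection, and was not tested.

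**Figure D1:**
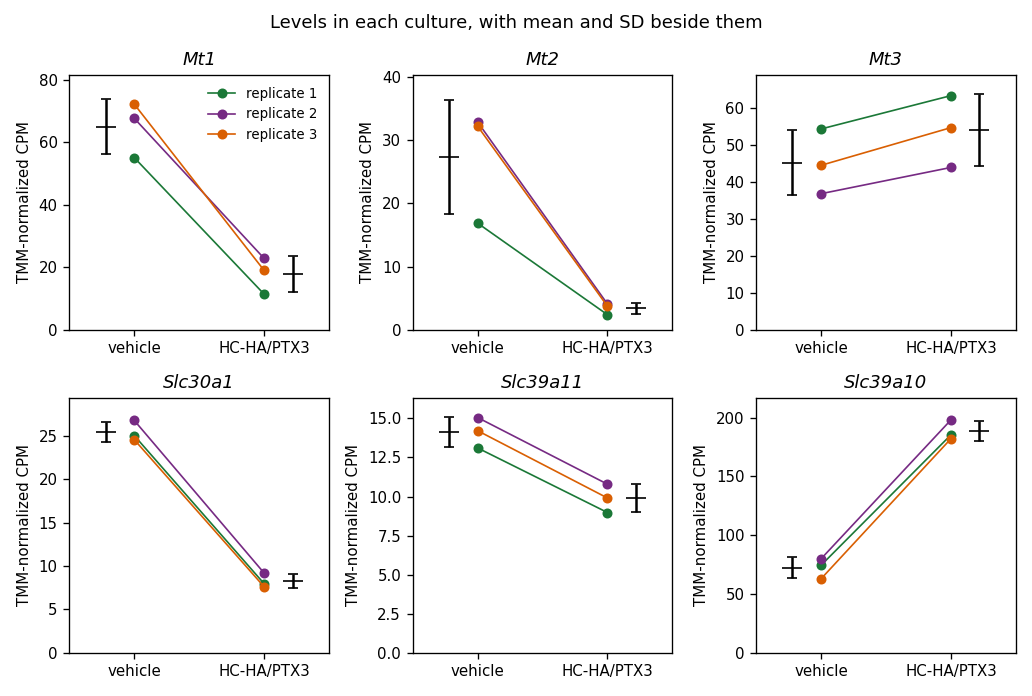
Level of 6 members in TMM-normalized CPM in each culture, with vehicle and HC-HA/PTX3 on the horizontal axis, a line for each same-numbered pair, and the group mean with its SD in black. Mt1, Mt2, Slc30a1 and Slc39a11 were lower in all 3 treated cultures than in any vehicle culture, Slc39a10 was higher, and the groups of Mt3 overlapped.

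Because Mt3 did not fall with Mt1 and Mt2, the composition of the metallothionein RNA changed. The 3 genes summed to 126, 137 and 149 CPM in vehicle replicates 1, 2 and 3 and to 77.0, 70.7 and 77.3 CPM in the HC-HA/PTX3 replicates. Mt3 made up 43.0% (95% exact Clopper-Pearson interval 41.6% to 44.4%), 26.8% (25.6% to 27.9%) and 29.8% (28.9% to 30.8%) of metallothionein counts in the vehicle cultures. In the treated cultures its share was 82.1% (80.7% to 83.5%), 61.9% (60.0% to 63.8%) and 70.6% (69.0% to 72.2%). The lowest treated share was above the highest vehicle share, and the intervals cover counting error only.

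The cluster offered a comparison by position. Of 16 other annotated genes that lie at least partly within 200 kb of the metallothionein genes, 9 were listed in the tables and 8 were tested, with a median log2 fold change of 0.02 against -0.01 over all tested genes. None of the 8 was called by edgeR with the block, by DESeq2 or by limma-voom (0 genes each), and 1 had an unadjusted p-value under 0.05 in edgeR. Over all tested genes, edgeR with the block called 8.70%. The gene with that p-value, Ogfod1, had a log2 fold change of 0.36 (adjusted p = 0.00886, SE 0.07, edgeR), under the threshold in size. Slc12a3 was at 0.34 (adjusted p = 0.161, SE 0.16) and Nup93, the nearest tested gene on the far side of Mt1, at 0.05 (adjusted p = 0.618, SE 0.07). The falls of Mt1 and Mt2 were therefore not shared by the tested neighbours.

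**Figure D2:**
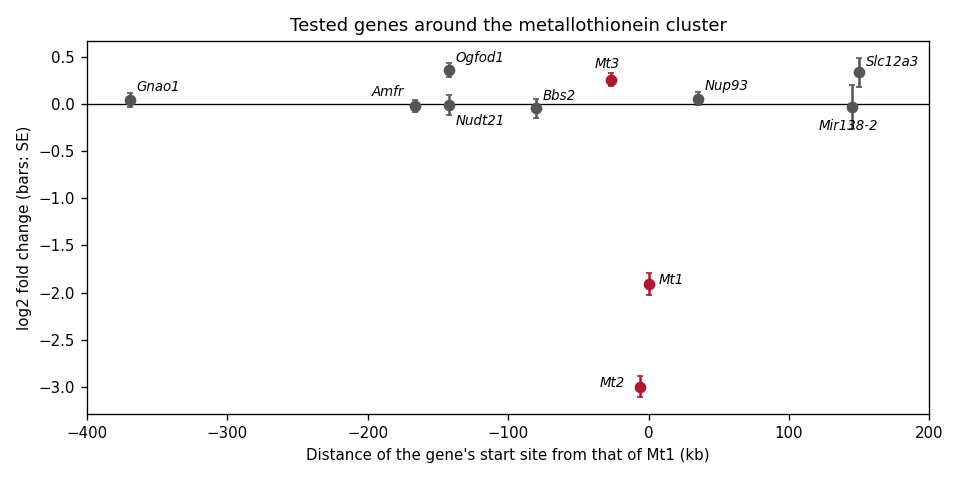
Log2 fold change (vertical axis, bars show the SE) of the tested genes around the metallothionein cluster against the distance of their start site from that of Mt1 in kb. The metallothioneins are in red and other genes in grey, and Mt1 (-1.91) and Mt2 (-3.00) lie far below the remaining genes, which run from -0.05 (Bbs2) to 0.36 (Ogfod1).

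Among the exporters, Slc30a1 was the gene that moved with Mt1 and Mt2. It encodes ZnT1, the exporter of the plasma membrane, and lies on chromosome 1 from 191906767 to 191913247. Its levels were 25.05, 26.8 and 24.6 CPM in vehicle replicates 1, 2 and 3 and 7.95, 9.18 and 7.59 CPM in the HC-HA/PTX3 replicates. The groups were far apart relative to the spread within them, and the pairs fell by nearly the same amount, with log2 ratios of -1.66, -1.55 and -1.69. The means were 25.5 ± 1.17 and 8.24 ± 0.833 CPM (n = 3 cultures a group, ± SD) and the log2 fold change was -1.63 (SE 0.10).

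The other exporters that passed the filter handle zinc inside the cell, and they did not follow Slc30a1. Slc30a4, which fills endosomal and secretory vesicles, had a log2 fold change of -0.19 (adjusted p = 0.0955, SE 0.07) and overlapping groups. Slc30a5 and Slc30a6, which act as a pair in the early secretory pathway, were at -0.07 (SE 0.08) and -0.07 (SE 0.10). Slc30a7, of the Golgi, was at 0.04 (SE 0.08), and Slc30a9, a mitochondrial zinc transporter, at 0.03 (SE 0.06). Slc30a9 had the highest CPM of the exporters, with 131 ± 8.84 CPM in the vehicle cultures and 134 ± 7.95 CPM in the treated cultures (n = 3 cultures a group, ± SD). The 6 tested exporters had a median change (log2) of -0.07, and 1 of the 6 was called, beside 8.70% of all tested genes.

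The remaining 4 exporter genes were at or near the limit of detection. Slc30a10, which exports manganese, had 8, 9 and 10 counts in the vehicle cultures and 7, 3 and 5 in the treated cultures. Slc30a2, Slc30a3 and Slc30a8, known from milk-secreting, synaptic and insulin-storing vesicles respectively, had at most 5, 2 and 2 counts in any culture. No change could be detected in these genes at this depth.

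Among the importers, Slc39a10 moved opposite to Mt1 and Mt2. It encodes ZIP10, an importer of the plasma membrane, and lies on the minus strand of chromosome 1 from 46807544 to 46892852. Its levels were 74.3, 79.8 and 62.8 CPM in vehicle replicates 1, 2 and 3 and 185, 198 and 182 CPM in the HC-HA/PTX3 replicates. The lowest treated culture had more than the highest vehicle culture by a wide margin, and the log2 ratios of the pairs were 1.32, 1.31 and 1.54. The means were 72.3 ± 8.69 and 188 ± 8.45 CPM (n = 3 cultures a group, ± SD) and the log2 fold change was 1.39 (SE 0.07). Counts of Slc39a10 were 2.97, 2.98 and 2.55 times those of Slc30a1 in the vehicle cultures and 23.3, 21.6 and 24.0 times in the treated cultures, ratios that also contain the difference in gene length.

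Slc39a11 was the importer that moved in the direction of Mt1 and Mt2, by a smaller amount. It lies on the minus strand of chromosome 11 from 113244853 to 113650079. Its levels were 13.1, 15.1 and 14.2 CPM under vehicle and 8.97, 10.8 and 9.90 CPM with HC-HA/PTX3. The groups did not overlap, and the log2 ratios within the pairs were -0.55, -0.48 and -0.52. The log2 fold change was -0.52 (adjusted p = 0.00740, SE 0.10, edgeR), just inside the size threshold. It was not called under upper-quartile scaling, at -0.48, or without the cultures numbered 3, at -0.50. Without those numbered 1 it was at -0.50 with an adjusted p of 0.0605 in edgeR, outside both thresholds.

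Slc39a12 and Slc39a4 had larger fitted changes at low counts, which edgeR and limma-voom with the block did not call and ComBat-seq followed by limma did. DESeq2 gave no adjusted p-value for them. Slc39a12, an importer known mainly from brain, was at 0.200, 0.209 and 0.125 CPM (8, 9 and 7 counts) in the vehicle cultures and 0.323, 0.396 and 0.432 CPM (12, 15 and 17 counts) in the treated cultures. The groups did not overlap, and the log2 fold change was 1.13 (adjusted p = 0.0831, SE 0.41). Slc39a4, the importer of intestinal zinc uptake, was at 0.125, 0.209 and 0.286 CPM (5, 9 and 16 counts) with vehicle and 0.323, 0.290 and 0.584 CPM (12, 11 and 23 counts) with HC-HA/PTX3. Its groups did not overlap either, although the highest vehicle and the lowest treated culture nearly met, and the log2 fold change was 0.94 (adjusted p = 0.121, SE 0.39). Counts of this size carry a large counting error. Groups did not overlap in 9 of the 24 tested members, beside 18.0% of all tested genes.

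Slc39a7 and Slc39a6, like Mt3, passed the adjusted p-value but not the size threshold. With the cultures of a replicate number left out, neither passed it in edgeR, at 0.0715 to 0.130 (Slc39a7) and 0.0977 to 0.166 (Slc39a6). DESeq2 with the block gave Slc39a6 an adjusted p of 0.0925, and edgeR on all genes with at least 1 count gave it 0.0946. Slc39a7, which releases zinc from the endoplasmic reticulum, averaged 91.8 ± 10.5 CPM in vehicle cultures and 108 ± 8.88 CPM in treated ones (n = 3 cultures a group, ± SD), for a fitted log2 change of 0.23 (adjusted p = 0.0309, SE 0.06). Slc39a6, the closest relative and known partner of Slc39a10, went from 152 ± 9.08 to 173.5 ± 10.6 CPM (n = 3 cultures a group, ± SD). Its log2 fold change was 0.19 (SE 0.06), with an adjusted p of 0.0492 that was the nearest of any member to the threshold. The gain of Slc39a10 in the fit was thus much larger than that of Slc39a6.

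The other importers had fitted log2 fold changes between -0.10 (Slc39a8) and 0.12 (Slc39a2). Slc39a1 and Slc39a3, plasma membrane importers, were at 0.00 (SE 0.07) and -0.02 (SE 0.09). Slc39a9 and Slc39a13, of the Golgi, were at 0.11 (SE 0.07) each. Slc39a14 and Slc39a8, which also carry manganese and iron, were at 0.08 (SE 0.08) and -0.10 (SE 0.20). Slc39a1 differed more between replicate numbers than between treatments, at 99.2, 102.6 and 56.3 CPM in the vehicle cultures and 97.5, 113.9 and 52.0 CPM in the treated cultures. Slc39a5 had at most 5 counts in any culture and was not tested. The 13 tested importers had a median change (log2) of 0.11. Of these, 1 was called lower and 1 higher, beside 5.38% and 3.32% of all tested genes.

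Mtf1, the factor that senses zinc for this family, was at 37.9, 36.2 and 47.8 CPM in the vehicle cultures and 35.5, 37.2 and 47.7 CPM in the treated cultures. Replicate 3 was the highest in both groups, and the pairs nearly coincided. The log2 fold change was -0.02 (SE 0.07). Tmem163, which exports zinc and is found on synaptic vesicles, went from 11.9 ± 3.65 to 10.3 ± 3.55 CPM (n = 3 cultures a group, ± SD), for a fitted log2 change of -0.23 (adjusted p = 0.165, SE 0.11).

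**Figure D3:**
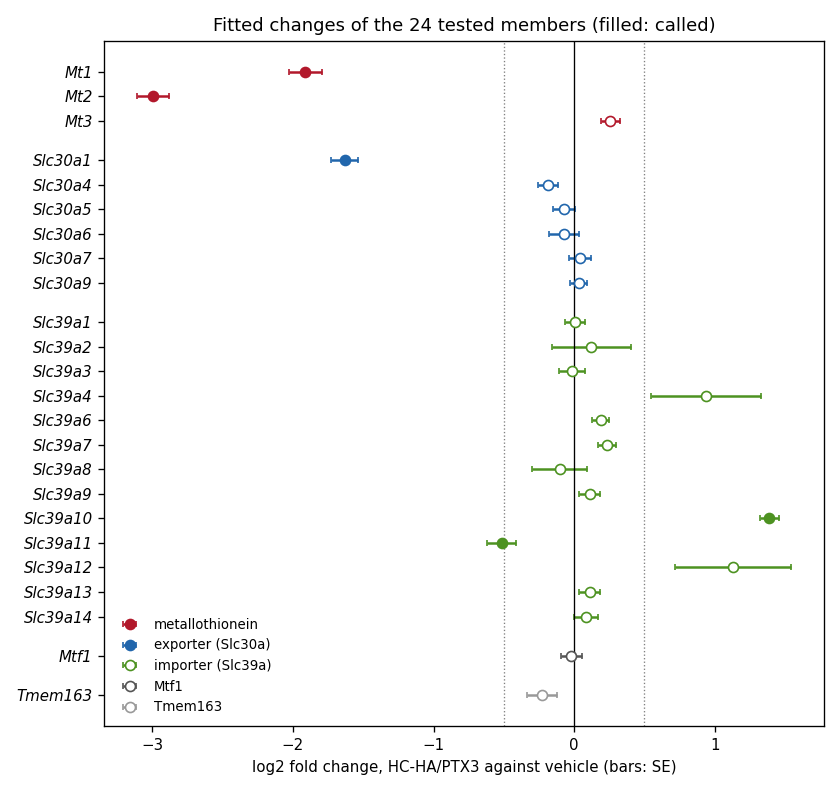
Fitted log2 fold change of HC-HA/PTX3 against vehicle (horizontal axis, bars show the SE) for the 24 tested members, grouped by role, with filled points for the called members and dotted lines at the size threshold of 0.5. Mt1, Mt2, Slc30a1 and Slc39a11 lie to the left of the lines and Slc39a10 to the right, while Slc39a4 and Slc39a12 lie to the right with wide error bars.

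Counted by pairs, 7 of the 24 tested members were lower in all 3 treated cultures than in their partners and 7 were higher, which is 29.2% each. Over all tested genes, 28.7% were lower and 25.2% higher in all 3 pairs. The lower members were Mt1, Mt2, Slc30a1, Slc30a4, Slc30a6, Slc39a11 and Tmem163. The higher members were Mt3, Slc39a4, Slc39a6, Slc39a7, Slc39a10, Slc39a12 and Slc39a13. With upper-quartile scaling 7 members were lower and 10 higher, beside 25.1% and 28.8% of all tested genes. With raw library sizes 6 were lower and 9 higher, beside 26.7% and 26.8%. The large differences of the called genes kept their direction under both scalings, and the small ones depended in part on the scaling.

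Levels in the vehicle cultures were compared between genes per kilobase of exon. The exons of Mt1 together covered its whole span of 1246 bases, and its longest transcript had 1085. Its level per kb is therefore too low if most of its RNA is a shorter transcript. Mt1 was the highest member, at 52.2 ± 7.12 CPM per kb, followed by Mt2 at 46.4 ± 15.4 and Mt3 at 42.3 ± 8.22 CPM per kb (n = 3 cultures a group, ± SD). The culture ranges of these 3 genes overlapped, as did those of Mt3 with Slc39a6 (37.4 ± 2.23 CPM per kb), and of Slc39a6, Slc39a1 (36.4 ± 10.9) and Slc39a7 (35.5 ± 4.05) in turn. With the longest transcript as the length, Mt3 ranked above Mt1 and Mt2, and several lower members changed places, among them Slc30a9, which passed Slc39a10. The next members were Slc39a10 at 11.9 ± 1.43 and Slc30a9 at 10.6 ± 0.714 CPM per kb, with overlapping ranges that did not reach those of the first 6.

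The rank of the plasma membrane exporter depended on the length used. Slc30a1 was at 4.86 ± 0.223 CPM per kb of exon in the vehicle cultures, at rank 14 of the 24 tested members, and ranked 18 by the longest transcript. By exon its range overlapped those of its neighbours Slc39a9 and Mtf1. From Slc30a4 (8.53 ± 1.26) to Tmem163 (2.78 ± 0.851 CPM per kb), 12 members followed one another without a large gap. Slc39a8 (0.396 ± 0.10), Slc39a2 (0.188 ± 0.0366), Slc39a4 (0.0665 ± 0.0259) and Slc39a12 (0.0594 ± 0.0154 CPM per kb) followed at much lower levels. In the treated cultures Mt1 and Mt2 stood at 14.2 ± 4.68 and 5.75 ± 1.52 CPM per kb, and Slc39a10 at 30.9 ± 1.39 (n = 3 cultures a group, ± SD).

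**Figure D4:**
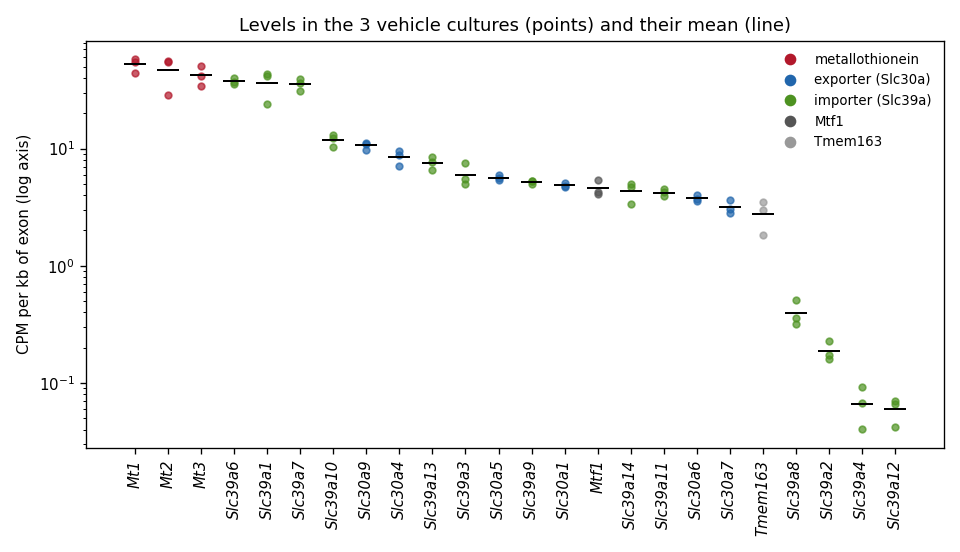
CPM per kb of exon (log axis) of the 24 tested members in the 3 vehicle cultures, ordered by the mean, with a point for each culture, a line for the mean and colours for the roles. The 3 metallothioneins and Slc39a6, Slc39a1 and Slc39a7 have means of 35.5 to 52.2, and Slc39a12 is the lowest at a mean of 0.0594.

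Reads of overlapping genes could not be told apart from those of the members, because the strand setting of the counting is not given in the sources used here. A gene on the opposite strand, Gm45774, shares 432 bases of exon with Mt2 and is not listed in the tables. On the opposite strand of Slc30a1, 1700034H15Rik shares 468 bases with it and averaged 0.702 ± 0.384 CPM in vehicle cultures and 0.531 ± 0.146 CPM in treated ones (n = 3 cultures a group, ± SD), far under Slc30a1. Mt1, Mt3, Slc39a10 and Slc39a11 shared no stretch of 75 bases with another annotated transcript, and Mt2 shared 30.2% of such stretches with Gm45774 alone. Of Slc39a7, 71.6% were shared with the overlapping transcript Gm20427, and of Slc39a1, 17.9% with a pseudogene, so their counts are less certain.

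Of 7 genes outside the family that MTF1 is known to regulate or is listed to target, 1 was called lower and 0 higher, beside 5.38% and 3.32% of all tested genes, with 3 at an unadjusted p-value under 0.05 in edgeR, and the median log2 fold change was -0.14 against -0.01 over all tested genes. The called gene was Csrp1, which encodes a LIM-domain protein of the actin cytoskeleton. It was at 160, 162 and 126 CPM in vehicle replicates 1, 2 and 3 and at 94.0, 100.1 and 57.7 CPM in the HC-HA/PTX3 replicates, a log2 fold change of -0.86 (adjusted p = 0.000418, SE 0.08, edgeR). Ndrg1 was at -0.44 (adjusted p = 0.00167, SE 0.06), under the size threshold. Selenoh (-0.35), Gclc (-0.14), Pgf (-0.09), Selenow (-0.08) and Slc40a1 (0.19) were not called.

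Other genes of zinc and copper handling were not called, beside 8.70% of all tested genes called by edgeR with the block. In the zinc list, 0 of 5 genes were called by edgeR, DESeq2 or limma-voom with the block, and 1 had an unadjusted p-value under 0.05 in edgeR. The largest log2 fold changes in it were those of the zinc receptor gene Gpr39, at -0.30 (adjusted p = 0.470, SE 0.27), the lysosomal channel gene Mcoln1, at 0.22 (adjusted p = 0.0606, SE 0.07), and Trpm7, at 0.12 (adjusted p = 0.241, SE 0.06). In the copper list, 0 of 10 genes were called by any of the 3 tools and 0 had an unadjusted p-value under 0.05 in edgeR. Its largest changes were 0.22 for the chaperone gene Atox1, -0.17 for Commd1 and 0.17 for Cox17. The medians were -0.07 for the zinc list and 0.06 for the copper list.

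Of 11 genes of iron handling, 1 was called lower and 0 higher, beside 5.38% and 3.32% of all tested genes. In edgeR 5 had an unadjusted p-value under 0.05, and the median log2 fold change was 0.13. The called gene was the ferroxidase gene Cp, at -0.73 (adjusted p = 0.00369, SE 0.13), whose groups overlapped because replicate 3 was low in both groups, at 20.6 and 8.94 CPM. The transferrin receptor gene Tfrc was higher in the fit by 0.28 (adjusted p = 0.0167, SE 0.07), under the size threshold.

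Genes of the other known inducers of Mt1 and Mt2 were counted in the same way, beside 8.70% of all tested genes called by edgeR with the block. Of 10 glucocorticoid-induced genes, 0 were called by edgeR, DESeq2 or limma-voom with the block, and 3 had an unadjusted p-value under 0.05 in edgeR, with a median of 0.01. The largest changes among them were those of Errfi1 at -0.47 (adjusted p = 0.00336, SE 0.08), Per1 at 0.37 (adjusted p = 0.00807, SE 0.08) and Dusp1 at -0.19 (adjusted p = 0.142, SE 0.08). Of 8 targets of the oxidative stress factor NRF2, 0 were called by the 3 tools and 4 had an unadjusted p-value under 0.05 in edgeR. Their median was 0.29, with Nqo1 at 0.43 (adjusted p = 0.0867, SE 0.16), Slc7a11 at 0.41 (adjusted p = 0.0817, SE 0.15) and Srxn1 at 0.34 (adjusted p = 0.0146, SE 0.08).

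Markers of the cell types in the cultures moved in part with the treatment, where 5.38% of all tested genes were called lower and 3.32% higher. All 8 neuronal markers were abundant, led by Tubb3, and summed to 6440, 4951 and 5478.5 CPM in vehicle replicates 1, 2 and 3 and 6743, 5369 and 6374 CPM in the HC-HA/PTX3 replicates. Of these, 1 was called higher, Tac1, at 2.01 times its vehicle level (adjusted p = 4.92e-05). All 5 markers of dividing cells were called lower, at log2 fold changes of -1.72 (Mki67, the most abundant), -1.68 (Top2a), -1.44 (Ccnb1), -1.42 (Cdk1) and -1.06 (Birc5). They summed to 645, 439 and 196 CPM under vehicle and 215, 220.0 and 34.9 CPM with HC-HA/PTX3. Of 5 fibroblast markers, 2 were called lower, Col1a1 at -1.62 (adjusted p = 0.000547, SE 0.17) and Col1a2, the most abundant, at -1.11 (adjusted p = 0.00270, SE 0.18). The fibroblast sum was 1469, 1415 and 628 CPM under vehicle and 765, 844 and 218 CPM with HC-HA/PTX3. The fall of the fibroblast sum lay mostly in these 2 collagen genes, since Dcn (-0.09), Lum (-0.31) and Pdgfra (-0.25) were not called. The part of either list in the falls of the members was not tested.

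The sums of the satellite glia markers differed between replicate numbers, and single markers moved in opposite directions. The share of all tested genes to hold beside the calls here is 5.38% lower and 3.32% higher. The 7 satellite glia genes, led by Apoe, summed to 2175, 1259 and 505 CPM under vehicle and 2060, 1274 and 508 CPM with HC-HA/PTX3. Of these, 0 were called by edgeR, DESeq2 or limma-voom with the block (4 at an unadjusted p-value under 0.05 in edgeR). Under the size threshold, 3 passed the adjusted p-value: Fabp7 at -0.40 (adjusted p = 0.0154) and Kcnj10 at -0.34 (adjusted p = 0.0108) were lower in all 3 pairs, and Glul at 0.28 (adjusted p = 0.0198) was higher in all 3. Of 6 macrophage markers, led by Cd68, 1 was called lower, C1qa, at -0.74 (adjusted p = 0.0302, SE 0.20), with sums of 37.2, 47.1 and 38.1 against 32.1, 43.2 and 27.2 CPM. Of 3 mural markers, led by Rgs5, 1 was called lower, Acta2, at -1.03 (adjusted p = 0.00873, SE 0.21), with sums of 387, 451 and 351 against 376, 429 and 237 CPM, whereas DESeq2 with the block called 0 of the 3. The 4 endothelial markers, led by Cdh5, summed to 174, 191 and 191 against 163, 204 and 171 CPM, with 0 called by any of the 3 tools and 0 at an unadjusted p-value under 0.05 in edgeR, the largest changes being -0.29 for Cldn5 and -0.08 each for Pecam1 and Cdh5. No marker of these lists was at 0 in all cultures, and the part of these cell types in the changes of the members was not tested.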

How the data were processed

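The authors aligned reads of ribosomal RNA-depleted libraries to mm10, filtered ribosomal RNA and made gene counts with the Subread function featureCounts. What was deposited is 1 table of raw counts for each culture, and these were used unchanged. The methods and the submitters' processing notes name HISAT2, whereas the headers of the count tables name STAR, and versions and the strand setting are not given in the sources used here.

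Members and lists were chosen with earlier results of these data known. R 4.3.3 with edgeR 4.0.16 was used. Of 35976 genes, 18277 passed filterByExpr and were scaled by TMM and fitted with glmQLFit and glmQLFTest, with the replicate number as a block beside the treatment. The methods state a batch term, and no batch is listed per culture. The pairing was checked on the data: the departure of a vehicle culture from its group mean correlated over genes with that of its same-numbered treated culture at 0.726, 0.638 and 0.833, and with other numbers at -0.697 to 0.198. Libraries within a group were not copies of each other, with a chi-square of 23.4 to 79.9 for each degree of freedom. Benjamini-Hochberg adjustment covered all tested genes. The fits were tested on simulated data with 200 planted changes, of which edgeR with the block found 200 with 12 false calls, and ComBat-seq followed by limma found 200 with 59. The planted changes had a single size well above the threshold, in genes with ample counts. The simulated means carried the pair shifts of the real cultures, so the simulation could not decide whether the block was right. It says nothing of how well small changes or changes at low counts are found. A count of 3 was taken as the limit of detection, which was 0.0536 to 0.0808 CPM.

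Values per culture are given for Mt1 to Mt4, called members, and members with non-overlapping groups and an absolute log2 fold change over 0.5. From each list, called genes are named up to 6, otherwise the 3 largest changes. Other members and list genes are given beyond this rule. The result of 1 marker list is not given. Lengths and positions came from GENCODE M21 and promoter windows from RefSeq. Alternatives were the fit without the block, DESeq2 1.42.0, limma-voom (limma 3.58.1), ComBat-seq (sva 3.50.0) followed by limma, other scalings and filters, no fold-change threshold, and cultures or pairs left out.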

Additional observations from a re-analysis of the deposited data

How the results depend on the processing

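Without the replicate block, edgeR called 0 members lower, 0 higher, and 0 genes in either direction, with 6 members at an unadjusted p-value under 0.05. The same counts of 0 were found when any single culture was left out without the block. These fits still gave log2 fold changes of -2.10 to -1.63 for Mt1, -3.27 to -2.81 for Mt2, -1.72 to -1.57 for Slc30a1 and 1.29 to 1.46 for Slc39a10, with adjusted p-values from 0.0581 to 0.714. In the 10 alternative fits that allowed for the replicate number, these 4 genes were called each time, with ranges of -2.10 to -1.74, -3.06 to -2.92, -1.68 to -1.58 and 1.33 to 1.43. Slc39a11 was called in 7 of the 10.

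Without one replicate number, the blocked fit called 3 to 4 members lower, 1 higher, 630 to 989 genes lower and 248 to 582 higher, the lowest gene counts being those without replicate 1. Over all fits with something left out, with or without the block, the ranges were 0 to 4 members lower, 0 to 1 higher, 0 to 989 genes lower and 0 to 582 higher. DESeq2 called 360 genes higher. ComBat-seq followed by limma called 3 members higher (Slc39a10, Slc39a4 and Slc39a12) and 1012 genes higher. With no fold-change threshold, 4 members were called higher, adding Mt3, Slc39a6 and Slc39a7, and 2103 genes were lower and 1402 higher. These added members had adjusted p-values of 0.0715 to 0.166 in the blocked edgeR fits with a replicate number left out. The cause of these differences was not tested. Calls were 61.8% lower in the fit reported, 70.3% with DESeq2, 71.8% without replicate 1 and 52.4% after ComBat-seq. No fold change of the 10 members recomputed changed sign, and cores were found in 21.4% of promoters when only the part before the start site was read. Depth limits Slc39a4, Slc39a12 and the 6 untested members.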
